A study of Mus musculus with 24 samples.

Results

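The Cyp4 genes described here encode cytochrome P450 enzymes of the liver that hydroxylate fatty acids at the end of the carbon chain opposite the carboxyl group. The members are 8 mouse genes, namely Cyp4a10, Cyp4a14, Cyp4a31, Cyp4a12a, Cyp4f13, Cyp4f14, Cyp4f15 and Cyp4v3. They are 8 of the 37074 gene names on the array. Every non-control probe of the array whose gene name equals one of these symbols was taken. This gave 12 probes of the 56605 gene probes on the array, and all 12 were among the 32037 probes that passed the filter on dim signal.

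Liver RNA was measured in 24 male C57Bl/6J mice on a standard diet, with 1 single-colour array per mouse and 6 mice in each of 4 groups. LWT mice express the nuclear receptor PPARα in hepatocytes and LKO mice do not, a reading of these labels that rests on the series title. Each genotype was given CL316243, which activates beta3 adrenergic receptors (3 mg/kg by gavage), or only its vehicle, 0.5% carboxymethyl cellulose in water. Gavage was at Zeitgeber time 10 h (hours after lights on) and every liver was taken at 16 h. The labels call the agonist groups Beta3. The Cre driver and the deleted part of Ppara are not given in the sources used here. The series asks what beta3 adrenergic activation does to liver gene expression with and without hepatocyte PPARα.

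Omega-hydroxylation is the first step by which a fatty acid becomes a dicarboxylic acid. The cytochrome P450 takes electrons from its reductase in the endoplasmic reticulum, alcohol and aldehyde dehydrogenases then oxidise the new hydroxyl group, and peroxisomes shorten the product. In mouse liver, Cyp4a10, Cyp4a14 and Cyp4a31 are textbook targets of PPARα, Cyp4a12a is male-biased and acts on arachidonic acid, and the Cyp4f enzymes act on eicosanoids and long-chain fatty acids. Cyp4v3 is the mouse counterpart of the human gene mutated in Bietti crystalline dystrophy.

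The Cyp4a genes are near copies of each other, so what each probe can tell apart comes first. The array's annotation places the Cyp4a probes on chromosome 4 (build mm9, used for all positions). All 3 Cyp4a10 probes also list Cyp4a32, which has no probe of its own on the array. One of the 2 Cyp4a31 probes also lists Cyp4a10, and the Cyp4a12a probe also lists Cyp4a12b. The other Cyp4a31 probe and the Cyp4a14 probe list 1 gene each. The sequences below, as the array's files give them, are the probes of Cyp4a10 and Cyp4a31 that cover the same stretch of the paired genes, with that stretch in capitals, and then the single probe of Cyp4a14.
Cyp4a10 probe at transcript base 782: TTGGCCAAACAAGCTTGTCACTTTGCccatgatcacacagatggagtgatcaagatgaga
Cyp4a31 probe at transcript base 736: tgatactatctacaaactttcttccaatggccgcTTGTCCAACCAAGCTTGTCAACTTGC
Cyp4a14 probe at transcript base 78: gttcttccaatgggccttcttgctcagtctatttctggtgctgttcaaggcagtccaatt
The shared stretch is 26 bases long and 22 of them are identical. The differences are G4T, A9C, C21A and T22C, counted from the first capital, with the Cyp4a10 base first. The Cyp4a10 probe spans chr4:115197445-115197926 on the plus strand, 482 bases of genome for a 60-base probe, so it crosses an intron. The Cyp4a31 probe lies at chr4:115242872-115242931 on the plus strand and the Cyp4a14 probe at chr4:115168609-115168668 on the minus strand, each over 60 unbroken bases. Signal of the Cyp4a10 probes, of the Cyp4a31 probe at base 736 and of the Cyp4a12a probe is therefore uncertain as to the family member. Among all 66 pairs of member probes, this was the only pair with an overlap of at least 15 bases that was at least 80% identical.

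The other probes of Cyp4a10 start at transcript bases 1193 (chr4:115198463-115198522) and 1528 (chr4:115205268-115205756, across an intron). The other Cyp4a31 probe starts at base 2441 (chr4:115251553-115251612), and the Cyp4a12a probe at base 2259 (chr4:115005258-115005317). On chromosome 17, Cyp4f13 has probes at base 1280 (chr17:33062503-33062650, across an intron) and at base 1527 of a transcript with no RefSeq entry in the annotation (chr17:33076837-33076896). Cyp4f14 has 1 probe at base 1949 (chr17:33042214-33042273) and Cyp4f15 has 1 at base 1926 (chr17:32840088-32840147). The Cyp4v3 probe starts at base 2631 (chr8:46391395-46391454). Where a gene has several probes, the brightest stands for it (base 1528 for Cyp4a10, 2441 for Cyp4a31, 1280 for Cyp4f13) and the others are given beside it.

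A level below is the log2 processed signal of a probe minus the 75th percentile of its array, so 0 is the 75th percentile. Levels of different probes are not comparable, since probes differ in how brightly they bind. Between 26985 and 34202 of the 56605 probes were well above background per array, and no gene spot was saturated. The arrays lay on 3 slides with 2 mice of every group on each. The 6 hepatocyte markers (Alb, Ttr, Apoa1, Apob, Apoc3 and Serpina1c) passed the filter, and their summed linear level was 2990 to 3830 across all groups. With CL316243 in LKO, Apoa1 was lower (-0.25) and Apob higher (0.22), and in LWT 0 of the 6 were called. Markers of cholangiocytes, adipocytes and kidney tubule summed to under 1 in each mouse, with Adipoq and Umod not passing the filter. The 4 stellate markers summed to 45.2 to 61.2 without and 54 to 72.8 with CL316243 in LWT, and to 41.1 to 58.8 without and 56.6 to 70.7 with it in LKO. Among them Dcn rose in both genotypes (0.28 and 0.24), Lrat fell in LWT (-0.71), and Reln and Col1a1 were not called. The sum is mostly Dcn, whose mean in LWT vehicle was 5.54 against 1.85 for Reln, the next brightest. The 4 endothelial markers summed to 29.8 to 45.4 over all mice, with Pecam1 higher in LWT (0.49) and Kdr lower in LKO (-0.56) with CL316243. The 5 Kupffer cell markers summed to 38.8 to 90.9, with 0 called in either genotype. Of the T and B cell markers Cd3e, higher in LKO by 0.24, passed the filter and Cd79a did not. Of the 3 neutrophil markers, S100a8 and S100a9 rose with CL316243 in both genotypes, and Ly6g fell in LWT. Their summed level was 1.78 to 4.93 in LWT vehicle, 1.88 to 12.6 in LWT CL316243, 1.94 to 3.07 in LKO vehicle and 3.31 to 43.1 in LKO CL316243. The part of these markers in the results below was not tested. In whole liver, fewer cells of a type and less RNA per cell cannot be told apart.

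Ppara was checked in every group. The brighter probe (base 2273) read 5.45 to 5.93 in LWT vehicle, 5.70 to 6.42 in LWT CL316243, 4.81 to 5.18 in LKO vehicle and 3.06 to 4.85 in LKO CL316243. LKO and LWT mice did not overlap under either treatment. LKO minus LWT was -0.68 under vehicle (adjusted p 0.151) and -1.91 under CL316243 (adjusted p 3.53e-07). The other probe (base 7356) gave -0.92 (adjusted p 0.0188) and -2.09 (adjusted p 5.82e-08). CL316243 itself changed Ppara, by 0.55 and 0.63 in LWT and by -0.69 and -0.54 in LKO on the 2 probes. These changes and their interactions (-1.23 and -1.17) were all called, so the wider gap under CL316243 is not a reading of genotype alone. A probe outside the deleted part would not read the deletion itself, and whether these probes lie in it is not known here.

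In LWT mice, CL316243 raised Cyp4a14, Cyp4a31 and Cyp4a10 steeply, lowered Cyp4f14 and Cyp4v3 slightly, and left Cyp4a12a, Cyp4f13 and Cyp4f15 short of the test. In LKO mice, Cyp4a10 and Cyp4a31 did not pass, and Cyp4a14 rose by a smaller step than in LWT. Thus 5 of 8 members were called in LWT (limma, Benjamini-Hochberg adjusted p under 0.05 over 32037 probes), 3 higher and 2 lower, where 37.6% of all probes tested were called, 19.1% higher and 18.5% lower. In LKO 3 of 8 were called, 1 higher and 2 lower, where 41% of all probes were, 21.1% higher and 19.9% lower. The median log2 difference of the 8 members was 0.04 in LWT and -0.17 in LKO, against 0.01 and 0.02 for all probes. At these shares of all probes, the number of members called says little about the family. The test of the difference between genotypes was called for 3 of 8 members, all with a lower effect in LKO, where 5.96% of all probes were called and 3.77% in that direction.

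**Figure D1:**
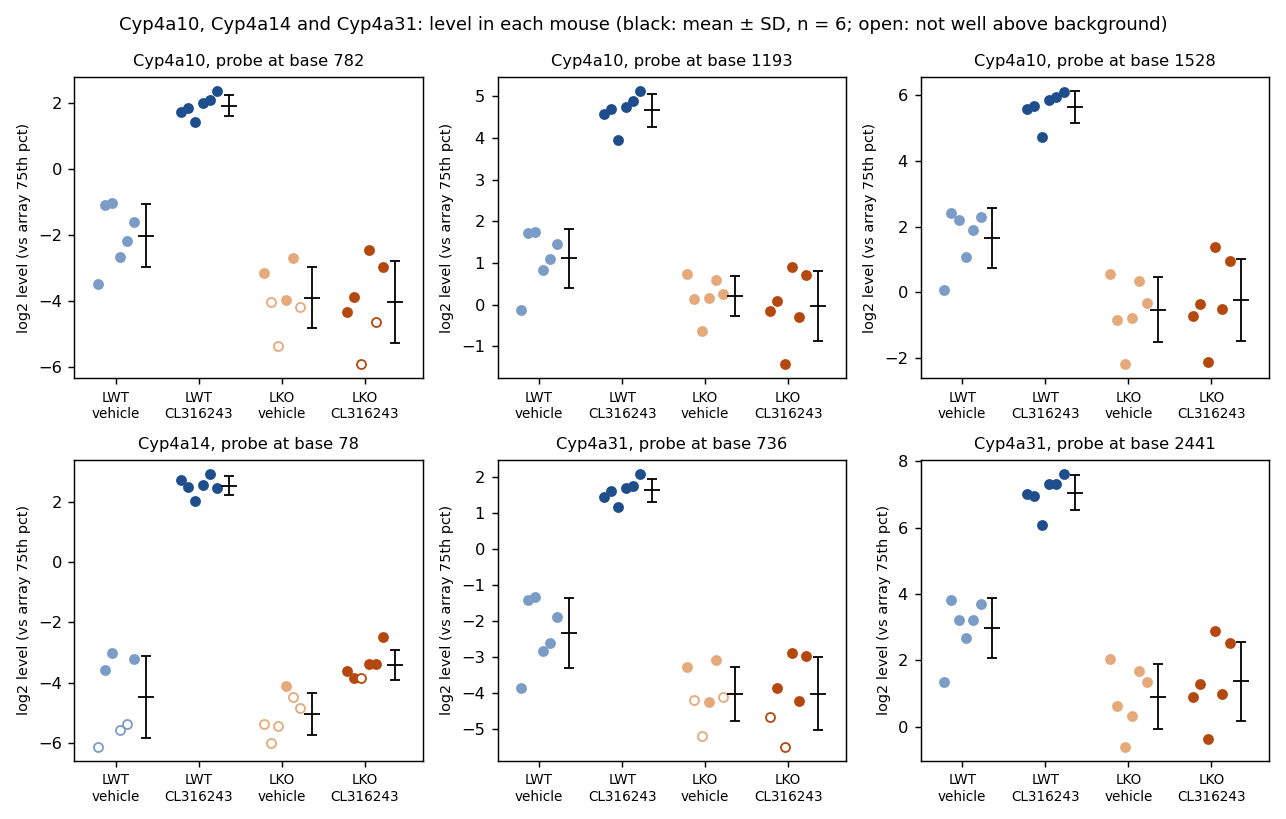
Level of each probe of Cyp4a10, Cyp4a14 and Cyp4a31 in every mouse (vertical axis, log2 level as defined above) by group (horizontal axis, 6 mice each); open points were not well above background and black marks show the mean ± SD. The 6 LWT CL316243 mice lie above all other mice for each of these 6 probes.

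Cyp4a14 was near background in the vehicle groups. In LWT vehicle it read -6.14 at the lowest, -4.46 at the median and -3.00 at the highest, and only replicates 2, 3 and 6 were well above background. In LWT CL316243 it read 2.02, 2.53 and 2.94. In LKO vehicle it read -6.01, -5.10 and -4.11, with 1 of 6 arrays well above background, and in LKO CL316243 -3.83, -3.51 and -2.49, with 5 of 6. The LWT CL316243 mice stand far above all others, the LKO CL316243 mice lie above every LKO vehicle mouse, and the vehicle groups overlap. The means ± SD (n = 6) were -4.48 ± 1.37, 2.54 ± 0.31, -5.04 ± 0.69 and -3.43 ± 0.50 in that order of groups.

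CL316243 raised Cyp4a14 by 7.02 in LWT (SE 0.45, 95% confidence interval 6.08 to 7.96, adjusted p 1.53e-10). In LKO it rose by 1.61 (SE 0.45, interval 0.68 to 2.55, adjusted p 0.00649). The effect in LKO was lower by 5.40 on the log2 scale (SE 0.64, adjusted p 9.6e-06). Both sizes rest on vehicle signals near background: with normexp background correction the LWT effect was 4.97 and the LKO effect 0.54, both still called. Within slides 1, 2 and 3 the LWT effect was 5.62, 7.12 and 8.31 and the LKO effect 1.30, 2.63 and 0.91.

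Cyp4a31 and Cyp4a10, read on their brightest probes, were well above background in every mouse. Cyp4a31 (base 2441, the probe that lists no other gene) read 1.33, 3.20 and 3.81 (lowest, median, highest) in LWT vehicle and 6.08, 7.17 and 7.63 in LWT CL316243. In LKO it read -0.62, 0.98 and 2.03 with vehicle and -0.38, 1.13 and 2.87 with CL316243. The LWT CL316243 mice were separate from the rest and the LKO groups overlapped each other.

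CL316243 raised Cyp4a31 by 4.07 in LWT (SE 0.51, adjusted p 2.26e-06), a 16.8-fold change. In LKO the difference was 0.47 (SE 0.51, interval -0.59 to 1.53, adjusted p 0.489). The effect in LKO was lower by 3.60 (SE 0.72, adjusted p 0.0033). The second probe (base 736) gave 3.95 in LWT and 0.01 in LKO, with a difference of -3.94 (adjusted p 0.000316).

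Cyp4a10 (base 1528) read 0.06, 2.05 and 2.42 in LWT vehicle, 4.73, 5.76 and 6.12 in LWT CL316243, -2.19, -0.55 and 0.56 in LKO vehicle, and -2.12, -0.44 and 1.37 in LKO CL316243. As for Cyp4a31, the LWT CL316243 mice alone stood apart. The gene rose by 3.99 in LWT (SE 0.52, adjusted p 3.99e-06), or 15.9-fold, and the LKO difference was 0.30 (SE 0.52, interval -0.78 to 1.39, adjusted p 0.673). The effect in LKO was lower by 3.69 (SE 0.74, adjusted p 0.00335). The probes at bases 782 and 1193 rose by 3.94 and 3.55 in LWT and read -0.13 and -0.23 in LKO, so the sign in LKO differs between probes and none of the 3 was called. Their interactions were -4.07 and -3.78, both called. At base 782, 3 of 6 LKO vehicle and 4 of 6 LKO CL316243 arrays were well above background, so its LKO values lie near background.

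On all 6 probes of these 3 genes the LWT CL316243 mice lay above every LWT vehicle mouse, as did 9.98% of all probes tested. In LKO the treatment groups were separate for Cyp4a14, Cyp4f14 and Cyp4f15, and for 20.8% of all probes. The effects in LWT were similar on every slide for Cyp4a10 and Cyp4a31. Within slides 1, 2 and 3 the LWT effect was 3.74, 3.96 and 4.27 for Cyp4a10 and 4.03, 3.95 and 4.25 for Cyp4a31. The difference between genotypes was -3.73, -3.70 and -3.63 for Cyp4a10 and -3.94, -3.56 and -3.31 for Cyp4a31.

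**Figure D2:**
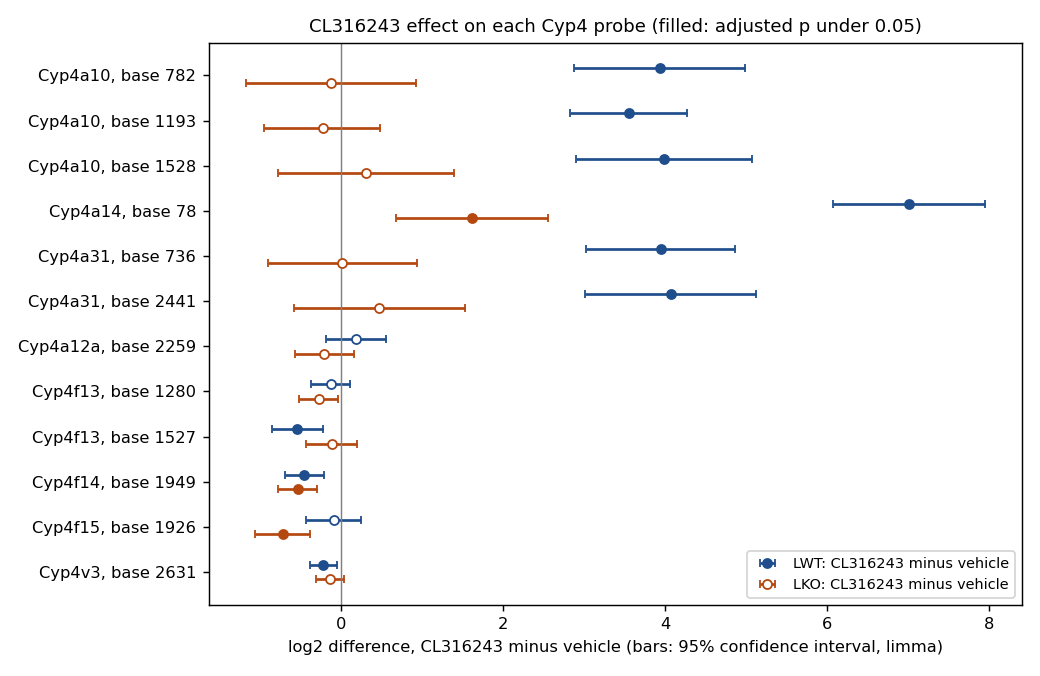
Log2 difference between CL316243 and vehicle (horizontal axis) for each of the 12 member probes (vertical axis, named by gene and transcript base), in LWT (blue) and LKO (orange); bars are 95% confidence intervals from limma and filled points passed an adjusted p of 0.05. The 6 probes of Cyp4a10, Cyp4a14 and Cyp4a31 lie between 3.55 and 7.02 in LWT, while in LKO Cyp4a14 alone among them was called.

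The lowest and highest mice were largely shared between Cyp4a10 and Cyp4a31, and in part with Cyp4a14. In LWT vehicle, replicate 1 was the lowest for all 6 probes of Cyp4a10, Cyp4a14 and Cyp4a31, and in LWT CL316243 replicate 3 was. The highest LWT CL316243 mouse was replicate 6 for Cyp4a10 and Cyp4a31 but replicate 5 for Cyp4a14. In LKO vehicle the lowest was replicate 3 for Cyp4a10 and Cyp4a31 but replicate 2 for Cyp4a14, and the highest was replicate 1 or 5, depending on the probe, but replicate 4 for Cyp4a14. In LKO CL316243 replicate 3 was the lowest on these probes (level with replicate 2 for Cyp4a14, at -3.83), and replicate 4 was the highest for Cyp4a10 and Cyp4a31 and replicate 6 for Cyp4a14. Over 24 mice, which share slides and groups, Pearson's r between Cyp4a10 and Cyp4a31 was 0.998, and 0.987 after the group means were taken out. Between Cyp4a10 and Cyp4a14 it was 0.887 and 0.568. The probes of 1 gene gave 0.986 to 0.994 for Cyp4a10 and 0.991 for Cyp4a31. After the group means were taken out they gave 0.958 to 0.967 and 0.931. The brightest probes of Cyp4a10 and Cyp4a31 thus followed each other more closely than the probes of either gene did among themselves. Shared signal and shared level of Cyp4a10 and Cyp4a31 were not separated here.

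Genotype alone, under vehicle, made a weaker mark. Of the 8 members, 2 were called, both lower in LKO, where 1.11% of all probes were called and 0.677% in that direction; the median of the 8 was -0.10. Cyp4a10 was lower by 2.19 (SE 0.52, interval -3.28 to -1.11, adjusted p 0.0388) and Cyp4a31 by 2.09 (SE 0.51, interval -3.15 to -1.03, adjusted p 0.0454), with all 6 LKO mice below the LWT mean for both, although the groups overlapped. The other probes did not pass, at -1.88 (adjusted p 0.0839) and -0.90 (adjusted p 0.351) for Cyp4a10 and -1.70 (adjusted p 0.0695) for Cyp4a31. Cyp4a14 gave -0.56 (interval -1.50 to 0.37, adjusted p 0.843), with both groups near background.

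Both vehicle calls are fragile. With slide as a block they were lost (adjusted p 0.0549 for Cyp4a10 and 0.0669 for Cyp4a31). Within slides 1, 2 and 3 the difference was -3.50, -1.38 and -1.70 for Cyp4a10 and -3.09, -1.25 and -1.94 for Cyp4a31. Leaving out 1 mouse kept the Cyp4a10 call only for LWT vehicle replicate 1 and LKO vehicle replicates 1 and 5, and the Cyp4a31 call only for replicate 1 of either group. Without any other vehicle mouse the call was lost, at differences of -2.31 to -1.86 for Cyp4a10 and -2.25 to -1.79 for Cyp4a31.

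Under CL316243, LKO minus LWT was -5.97 for Cyp4a14 (SE 0.45, adjusted p 1.48e-09), -5.88 for Cyp4a10 (SE 0.52, adjusted p 2.05e-08) and -5.70 for Cyp4a31 (SE 0.51, adjusted p 2.33e-08). For Cyp4a14, 5 of 6 LKO arrays were well above background, and with normexp background correction the Cyp4a14 difference was -4.64, smaller than those of Cyp4a10 and Cyp4a31 with the same correction, so no order of size among the 3 is read. No LKO mouse reached any LWT mouse on any of their 6 probes, where 4.19% of all probes were separated in this way in the same direction. Cyp4f15 was the fourth member called lower. In all, 4 of 8 members were called, where 15.4% of all probes were called and 8.16% in that direction, and the median of the 8 was -0.61. These comparisons share mice with those above, so they are the same levels seen from another side.

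In order of mean level, every probe of Cyp4a10 and Cyp4a31 ran from LWT CL316243 down to LWT vehicle and then to the LKO groups. On the brightest probes LKO CL316243 lay above LKO vehicle, and on the Cyp4a10 probes at bases 782 and 1193 it lay below. Only LWT CL316243 was free of overlap with its neighbour, and the LKO groups did not differ by the test. For Cyp4a14 the order was LWT CL316243, LKO CL316243, LWT vehicle, LKO vehicle; LKO CL316243 and LWT vehicle overlapped, as did the vehicle groups.

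Cyp4a12a, which converts arachidonic acid to its omega-hydroxylated product, was well above background in all mice and was called in none of the 5 comparisons. It read 4.88, 5.0 and 5.25 (lowest, median, highest) in LWT vehicle, 4.88, 5.21 and 5.39 in LWT CL316243, 4.47, 4.98 and 5.63 in LKO vehicle, and 3.85, 4.96 and 5.03 in LKO CL316243. All groups overlapped, and LKO CL316243 replicate 3 lay below every other mouse. The CL316243 difference was 0.18 in LWT (interval -0.19 to 0.55, adjusted p 0.46) and -0.21 in LKO (interval -0.57 to 0.16, adjusted p 0.376). The genotypes under CL316243 differed by -0.41 (adjusted p 0.129).

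Cyp4a12a is known for higher levels in males, so a list of 7 other male-biased liver genes was read beside it. In LWT 1 rose and 3 fell, with a median of -0.50, and in LKO 0 rose and 3 fell, with a median of -0.30. Of all probes, 18.5% fell in LWT and 19.9% in LKO. Hsd3b5, a male-specific steroid dehydrogenase, fell by 5.65 in LWT and by 4.93 in LKO (adjusted p 1.07e-09 and 3.43e-08). Elovl3, a fatty acid elongase, rose by 1.74 in LWT and read 0.05 in LKO, with an interaction of -1.69 (adjusted p 0.0477). Cyp2d9 (0.12 and -0.30) and Cyp7b1 (-0.50 and -0.11) were not called in either genotype.

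**Figure D3:**
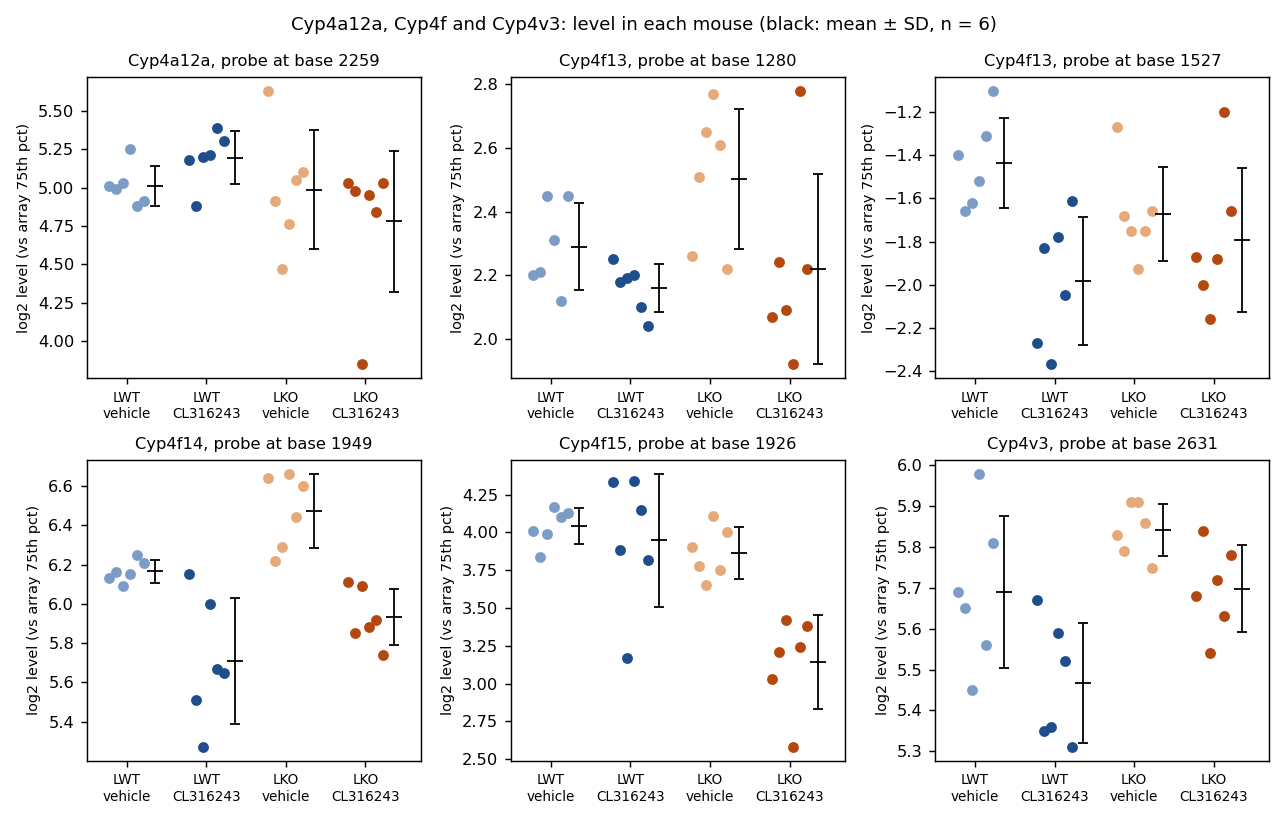
Level of Cyp4a12a, both Cyp4f13 probes, Cyp4f14, Cyp4f15 and Cyp4v3 in every mouse (vertical axis, log2 level as defined above; each panel has its own scale) by group (6 mice each), with mean ± SD in black. Group means differ by less than 1 in each panel, and LKO CL316243 lies lowest for Cyp4f15.

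The members Cyp4f13, Cyp4f14, Cyp4f15 and Cyp4v3 moved by less than 1 on the log2 scale, and none of these 4 showed a called difference between the genotypes' responses. Cyp4f14, which hydroxylates leukotriene B4 and other eicosanoids, fell with CL316243 in both genotypes. It read 6.09, 6.15 and 6.25 (lowest, median, highest) in LWT vehicle and 5.27, 5.66 and 6.15 in LWT CL316243. In LKO it read 6.22, 6.52 and 6.66 with vehicle and 5.74, 5.90 and 6.11 with CL316243. The LKO groups did not overlap, and in LWT the highest treated mouse reached the vehicle range. The change was -0.46 in LWT (SE 0.12, adjusted p 0.00366) and -0.54 in LKO (SE 0.12, adjusted p 0.000815), with a difference of -0.09 (interval -0.43 to 0.26, adjusted p 0.839). Genotype was not called under vehicle (0.31, adjusted p 0.334) or CL316243 (0.23, adjusted p 0.216).

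Cyp4f15 was lowest in LKO mice given CL316243. It read 3.84, 4.06 and 4.17 in LWT vehicle, 3.17, 4.02 and 4.34 in LWT CL316243, 3.65, 3.84 and 4.11 in LKO vehicle, and 2.58, 3.23 and 3.42 in LKO CL316243. The LKO groups did not overlap, and the lowest LWT CL316243 mouse, replicate 3, lay inside the LKO CL316243 range. CL316243 lowered it by 0.72 in LKO (SE 0.16, interval -1.06 to -0.39, adjusted p 0.00115), while the LWT difference was -0.09 (SE 0.16, interval -0.43 to 0.24, adjusted p 0.698). Under CL316243 LKO was lower than LWT by 0.81 (SE 0.16, adjusted p 0.00107). The effects of the genotypes differed by -0.63 (SE 0.23, adjusted p 0.114), which was not called; without LWT CL316243 replicate 3 it was -0.78 and called (adjusted p 0.0113), and the LWT difference was then 0.06. Within slides the LKO effect was -0.51, -0.63 and -1.02, and the difference between genotypes -0.53, -0.23 and -1.12.

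Cyp4f13 is a case where the probes disagree. At base 1280 it read 2.12, 2.26 and 2.45 in LWT vehicle, 2.04, 2.19 and 2.25 in LWT CL316243, 2.22, 2.56 and 2.77 in LKO vehicle, and 1.92, 2.16 and 2.78 in LKO CL316243, with all groups overlapping. Its CL316243 difference was -0.13 in LWT (adjusted p 0.414) and -0.28 in LKO (adjusted p 0.0545), neither called. With the mean of both probes the LWT difference was -0.34 and called (adjusted p 0.0149). The LKO difference was called without LKO vehicle replicate 1 (-0.33), LKO vehicle replicate 6 (-0.34) or LKO CL316243 replicate 5 (-0.39), and under 4 of 12 other settings (adjusted p 0.0307 to 0.148 over the 12). The probe at base 1527 fell by 0.55 in LWT (SE 0.15, adjusted p 0.00706) and gave -0.12 in LKO (adjusted p 0.555), with an interaction of 0.42 that was not called (adjusted p 0.291). Pearson's r between these probes over 24 mice was 0.275, and 0.161 with the group means taken out. The sequence of the probe at base 1280, the one that lists the Cyp4f13 RefSeq transcript, is given here so that it can be placed.
Cyp4f13 probe at transcript base 1280: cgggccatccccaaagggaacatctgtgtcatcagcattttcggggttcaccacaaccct

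Cyp4v3, a fatty acid hydroxylase, had the narrowest spread of the members within LKO vehicle. It read 5.45, 5.67 and 5.98 in LWT vehicle, 5.31, 5.44 and 5.67 in LWT CL316243, 5.75, 5.84 and 5.91 in LKO vehicle, and 5.54, 5.70 and 5.84 in LKO CL316243, with both treatment comparisons overlapping. It fell by 0.22 in LWT (SE 0.08, adjusted p 0.037), a 1.17-fold change. The call was lost on leaving out LWT vehicle replicate 1, 4 or 6 or LWT CL316243 replicate 2, 3 or 6 (-0.22 to -0.16), and with no filter on dim probes or both groups alone (adjusted p 0.0903 and 0.0986). In LKO the difference was -0.14 (adjusted p 0.175). LKO read above LWT by 0.23 under CL316243 (adjusted p 0.0602), called without LWT CL316243 replicate 1 (0.27) or 4 (0.26) or LKO CL316243 replicate 3 (0.26). It was also called with quantile normalization (0.27, adjusted p 0.0316), with the authors' deposited values (0.27, adjusted p 0.0314) and with a trended prior (0.23, adjusted p 0.0404).

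Other Cyp4 genes of the array were read next. Of 14 listed, 13 are on the array and 6 passed the filter. In LWT 3 of the 6 rose and 0 fell, with a median of 0.60, where 37.6% of all probes were called. In LKO 3 rose and 2 fell, with a median of 0.08, where 41% of all probes were called. Cyp4f16 rose by 1.44 in LWT and 0.63 in LKO (adjusted p 2.38e-06 and 0.00763). Cyp4f18, a leukotriene B4 hydroxylase known from neutrophils, rose by 1.11 and 0.46 (adjusted p 3.64e-07 and 0.00404), and its rise was smaller in LKO by 0.64 (adjusted p 0.0265). That was the 1 called interaction among the 6, where 5.96% of all probes were called and 3.77% in that direction. The neutrophil markers S100a8 and S100a9 rose by 1.48 and 1.44 in LWT and by 2.30 and 2.25 in LKO, with interactions of 0.82 and 0.81 that were not called. The third marker of that list, Ly6g, fell by 0.38 in LWT (adjusted p 0.0353) and gave -0.28 in LKO (adjusted p 0.117).

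Cyp4f39, an omega-hydroxylase of very long chain fatty acids, rose by 1.45 in LWT and 1.32 in LKO (adjusted p 0.000109 and 0.000446). It was well above background on 4 of 6 LWT vehicle and 3 of 6 LKO vehicle arrays, and its LKO CL316243 level rests on 5 mice. In LKO Cyp4b1 fell by 0.55 and Cyp4f17 by 0.37 (adjusted p 0.00404 and 0.011), where LWT gave -0.35 and -0.14 (adjusted p 0.0588 and 0.348); neither interaction was called. Cyp4a12b, the close copy of Cyp4a12a, gave 0.10 in LWT and -0.30 in LKO, neither called.

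**Figure D4:**
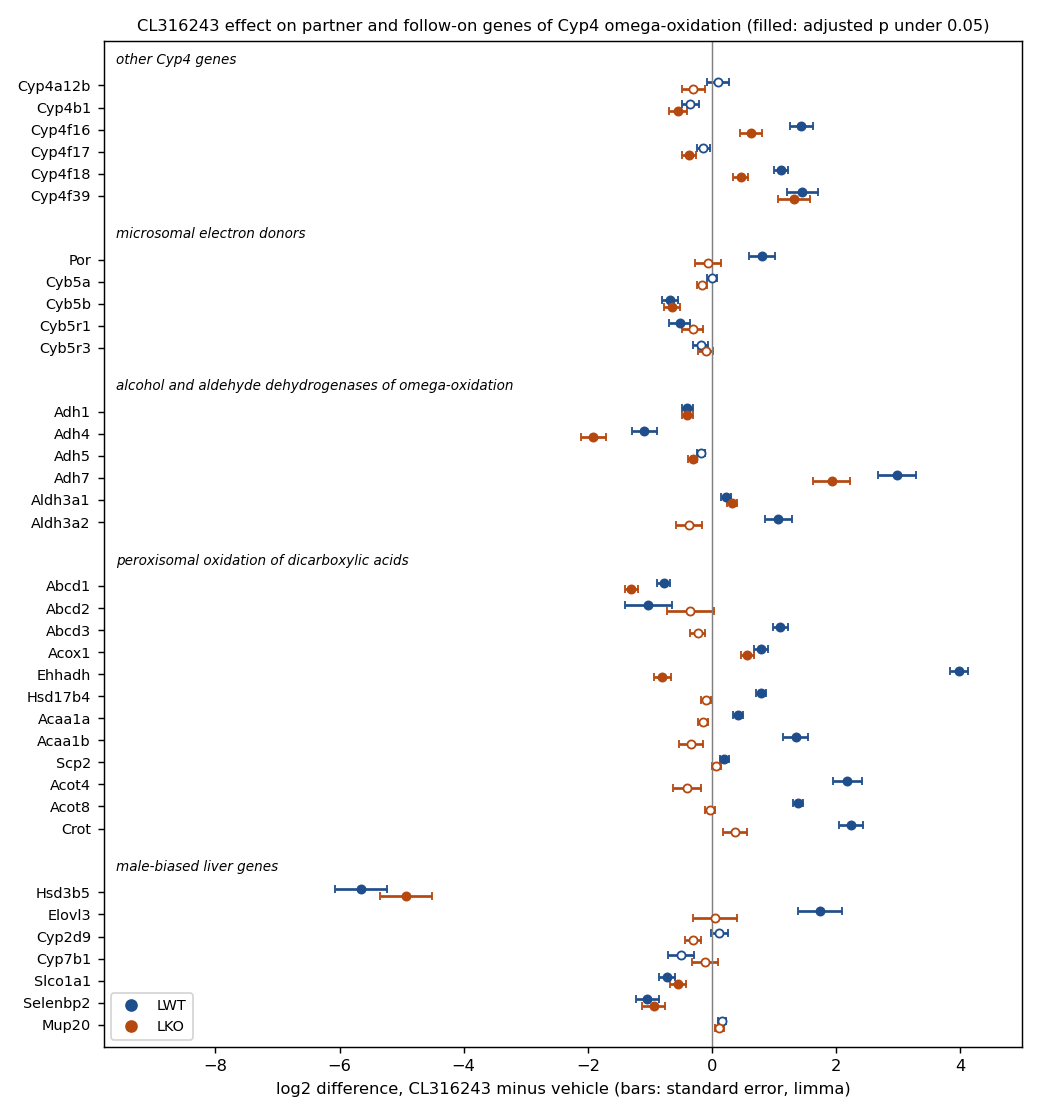
Log2 difference between CL316243 and vehicle (horizontal axis) in LWT (blue) and LKO (orange) for other Cyp4 genes and for genes listed as electron donors or as acting after omega-hydroxylation. Male-biased genes are at the bottom. Bars are standard errors from limma and filled points passed an adjusted p of 0.05. Among the peroxisomal genes 10 of 12 lie to the right of 0 and filled in LWT, and 1 of 12 does in LKO.

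Of 5 genes listed as electron donors of cytochromes P450, 1 rose and 2 fell in LWT, and 0 rose and 1 fell in LKO. The medians were -0.18 and -0.16. Of all probes, 19.1% rose and 18.5% fell in LWT, and 21.1% and 19.9% in LKO. Por, the cytochrome P450 reductase, rose by 0.80 in LWT (adjusted p 0.00544) and gave -0.07 in LKO (adjusted p 0.816), with an interaction of -0.87 that was not called (adjusted p 0.0998). Cyb5r1 fell by 0.52 in LWT and gave -0.31 in LKO. Cyb5a gave 0 in LWT and -0.16 in LKO, neither called. Cyb5b, named after its values were seen, fell by 0.68 and 0.64, and whether it feeds the Cyp4 enzymes was not tested. Of the 6 dehydrogenases that oxidise the hydroxylated product, 3 rose and 2 fell in LWT, and 2 rose and 3 fell in LKO, with medians of 0.02 and -0.34, beside the same shares of all probes. Aldh3a2, the fatty aldehyde dehydrogenase, rose by 1.07 in LWT (adjusted p 0.000284) and gave -0.37 in LKO (adjusted p 0.158), and its interaction of -1.44 was called (adjusted p 0.00348). Adh7 rose in both genotypes, by 2.98 and 1.93, and Adh4 fell in both, by 1.09 and 1.91; neither interaction was called. Adh5 gave -0.18 in LWT, not called, and fell by 0.31 in LKO.

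The 12 genes listed for peroxisomal oxidation of dicarboxylic acids had a median of 0.95 in LWT and -0.19 in LKO. In LWT 10 rose and 2 fell, where 19.1% of all probes rose and 18.5% fell. In LKO 1 rose and 2 fell, where 21.1% and 19.9% of all probes did. The interaction was called lower for 9, where 3.77% of all probes were. Ehhadh, the peroxisomal bifunctional enzyme, rose by 3.98 in LWT (adjusted p 4.72e-15) and fell by 0.80 in LKO (adjusted p 8.61e-05), a difference of -4.77 (adjusted p 3.28e-13). Acot4, a peroxisomal acyl-CoA thioesterase, rose by 2.18 in LWT and gave -0.40 in LKO, a difference of -2.58 (adjusted p 2.13e-05). Crot, carnitine octanoyltransferase, rose by 2.24 and gave 0.37, a difference of -1.87 (adjusted p 8.29e-05). Acaa1b, a peroxisomal thiolase, rose by 1.35 and gave -0.34, a difference of -1.69 (adjusted p 0.000508).

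The genes most like each member were ranked by Pearson's r over the 24 mice among 13508 genes outside the Cyp4 family. The mice share groups and slides, so r is given with and without the group means, and no p. Closest to Cyp4a10 were Adck2 (0.960, and 0.692 with group means taken out), Cpt2 (0.955 and 0.638), the inner-membrane carnitine palmitoyltransferase, and Abhd6 (0.955 and 0.500), a monoacylglycerol lipase. Closest to Cyp4a31 were Abhd6 (0.956 and 0.522), Adck2 (0.956 and 0.683) and Decr1 (0.954 and 0.507), a dienoyl-CoA reductase. For Cyp4a14 the list was Hsdl2 (0.959 and 0.422), Smox (0.955 and 0.608), Pmepa1 (0.953 and 0.260), Hic2 (0.952 and 0.238) and B3gat3 (0.951 and 0.462).

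Cyp4f15 kept more of its likeness within groups, with Slc25a13 (0.944 and 0.846), the mitochondrial aspartate-glutamate carrier, Ftcd (0.875 and 0.819) and Aptx (0.873 and 0.660). Among the genes most like Cyp4f14 were Tcea3 (0.901 and 0.637) and Afmid (0.900 and 0.692), and its own r with Cyp4f15 was 0.360, and 0.675 within groups. Cyp4v3 lay closest to Zfp600 (0.843 and 0.716), Slco1b2 (0.836 and 0.629), a hepatic uptake transporter, and Gpr108 (0.833 and 0.780). Cyp4f13 lay closest to Mtmr9 (0.813 and 0.738), Cenpb (0.810 and 0.756) and Aup1 (0.778 and 0.696). Cyp4a12a had the lowest best match, with Bcl9l (0.770 and 0.703), Rasal2 (0.758 and 0.686) and Arhgap23 (0.740 and 0.696), and its r with Cyp4a10 was 0.540, and 0.614 within groups.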

How the data were processed

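The scanner tables hold intensity per spot, which the authors extracted using Agilent Feature Extraction (version 10.10.1.1), as the submitters' processing notes state; the deposited series table holds log2 values and served as an alternative. Flags for outliers and signal well above background came with the deposited scanner tables. Log2 processed intensity was taken after outlier spots were removed, repeat spots of a probe were averaged, and values were set relative to the 75th percentile of the array (397.4 to 577.7 on the linear scale). A probe was kept if, in 1 group or more, 4 or more of the 6 arrays were well above background. All 32037 kept probes were fitted, 1 mean per group, with limma 3.58.1 in R 4.3.3, and p-values were adjusted by Benjamini-Hochberg within each comparison. The 6 mice per group are separate animals. The number of arrays limits the precision: log2 differences had a median standard error of 0.14, and 0.19 for the interaction. Simulated data had normal noise and LWT changes in only a small part of 31937 probes. There the fit recovered 48%, 72%, 98% and 100% of changes of 0.5, 1, 2 and 4. In the real data 37.6% of all probes were called in LWT, so these shares do not describe the power of the real test.

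Groups came from the genotype and treatment labels. The members, gene lists and tests were chosen with earlier results of these data known. Every member probe and every tested other Cyp4 gene is named; of other lists, up to 4 genes with the largest interaction; and the 3 genes (5 for Cyp4a14) most like each member, of which 1 is not reported here. Hepatocyte and other cell type markers were summed on the linear scale. Alternatives were normexp background correction (offset 50), quantile normalization, the deposited table, other filters and blocks, 1 value per gene, a trended prior, a 1.5-fold requirement, both groups alone, and each mouse left out. Protein and Cyp4a promoter sequences were not used here.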

Additional observations from a re-analysis of the deposited data

Results flagged for a closer look

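Single mice stood apart from the other 5 of their group, by Dixon's test at the 95% level, which chance meets in about 1 group in 20. The test was run on 12 probes in each of 4 groups, so a few such mice are met by chance alone. For Cyp4a14, LKO CL316243 replicate 6 read -2.49, against -3.39 for the next mouse. For Cyp4a12a, LKO CL316243 replicate 3 read 3.85, against 4.84 for the next.

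The CL316243 effect differed between genotypes, by the tested interaction (LKO minus LWT), on each probe of 3 members. For Cyp4a10 it was -4.07 at base 782, -3.78 at base 1193 and -3.69 at base 1528. For Cyp4a14 it was -5.40, and for Cyp4a31 -3.94 at base 736 and -3.60 at base 2441.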

How the results depend on the processing

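Of 1088 recomputed values, 1023 kept their direction and their side of the threshold. The interaction calls of Cyp4a10, Cyp4a14 and Cyp4a31, and the LWT rises of these genes, held in every setting run. The number of members called under vehicle, 2 in the main analysis, was 0 with no filter on dim probes, with slide as a block, with slide and row as blocks and with both groups alone, and 1 with the mean of a gene's probes; with 1 mouse left out it was 0 to 2. The share of all probes called under vehicle, 1.11% in the main analysis, also fell with no filter and with either slide block. With both groups alone it rose slightly. The LWT count was 3 with a 1.5-fold change required and 6 with the mean of a gene's probes. The LWT share of all probes, 37.6% in the main analysis, was lower in the first setting and slightly lower in the second. The count under CL316243 was 5, against 4, with quantile normalization, the deposited table and the trended prior. There the share of all probes, 15.4% in the main analysis, was slightly higher in each. The mean of a gene's probes turned 3 uncalled values: Cyp4a10 in LKO (-0.02), the Cyp4f13 interaction (0.13) and Cyp4f13 under vehicle (-0.01). Leaving out 1 mouse turned others, with ranges of -0.15 to 0.08 for Cyp4a12a under vehicle, -0.17 to 0 for the Cyp4f14 interaction, -0.17 to 0.06 for Cyp4f15 in LWT, -0.03 to 0.68 for Cyp4a10 in LKO and -0.05 to 0.12 for Cyp4f13 between genotypes under CL316243. The cause was not tested, except that fewer mice or other probes enter by construction. Between same-numbered mice r was -0.173 to 0.416, with a median of 0.0512 and 8 of 36 pairs over 0.1. The median for mice of different numbers was -0.00483, and 8 of 24 mice correlated best with their own number. Whether same-numbered mice were paired was not tested. The replicate block gave 5, 3, 3, 2 and 4 members called, the same counts as the main analysis. Slightly more of all probes were called with that block in each comparison. Signal near background limits Cyp4a14 in both vehicle groups. It also limits the Cyp4a10 probe at base 782 and the Cyp4a31 probe at base 736 in both LKO groups.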
